A study of Mus musculus with 2 samples.

Results

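The genes described here are 10 transcription factors that act in blood progenitors: Gata2, Myb, Runx1, Spi1 (PU.1), Erg, Fli1, Meis1, Ikzf1 (Ikaros), Lyl1 and Cebpa. They were taken from the count table by symbol, and each symbol matched 1 of its 27998 genes. They were brought together, with earlier results of these data known, as factors that are lost when cells commit to the erythroid lineage. In the files 8 of the 10 were at least 2-fold lower in the stage S1 than in the progenitor gate S0-low (both defined below), against 23.6% of all genes. S0-low held 22.5% stem and progenitor-like and 11.4% non-erythroid cells. At the first step, from S0-low to S0-medium, the count was 8, against 18.5% of all genes. Without those cells it was 4, against 7.78% of all genes, and Erg and Cebpa then had too few UMIs to be called. Up to S3 the label does not hold for Lyl1. Its level per UMI was not lower in the erythroblasts of S3 than in S0-low, and its UMIs per cell were 0.849 times those of S0-low. In the last stage, S4/S5, its UMIs per cell were 0.345, beside 1.04 in S0-low. Ikzf1 was not lower until after S1.

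The data are 1 CITE-seq experiment, in which the RNA of single cells and 10 antibodies with DNA barcodes are sequenced from the same droplets. The cells were dissociated from pooled fetal livers of C57BL/6 mouse embryos at e13.5. Ter119+ cells were removed magnetically and then returned in equal number to the Ter119- fraction, to balance the stages. Cell numbers per stage are thus not those of the liver. No genetic change or treatment was applied, and every group below is a set of cells of this 1 library, defined by antibody counts or by clustering of their RNA. The cDNA library held 7863 cells and 58606632 UMIs (unique molecular identifiers, which count RNA molecules), with a median of 5707 UMIs per cell, and all 7863 cell barcodes were shared with the antibody library. After removal of doublets and of cells outside the quality limits, 7244 cells were kept.

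Stages follow the fetal liver scheme that uses the erythroid surface protein Ter119 and the transferrin receptor CD71. Cells with few lineage antibody counts were assigned to S0-low (1510 cells, low Ter119 and low CD71), S0-medium (1054 cells, intermediate CD71), S1 (612 cells, low Ter119 and high CD71), S2 (1297 cells, intermediate Ter119), S3 (838 cells, high Ter119 and high CD71) and S4/S5 (898 cells, high Ter119 and reduced CD71). S0 cells are progenitors, S1 and S2 hold late colony-forming erythroid cells, and S3 to S5 are erythroblasts in terminal differentiation. From the first stage to the last, the median depth was 6146, 10282, 10151.5, 6021, 4534.5 and 3949 UMIs per cell. Globin RNA took 1.05% of UMIs in S0-low, 37.6% in S3 and 64.0% in S4/S5, which lowers the share left for every other gene, so levels are also given per non-globin UMI where that matters.

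Blood progenitors hold several of these factors at the same time. GATA2, RUNX1, ERG, FLI1 and LYL1 bind together at many enhancers of stem and progenitor cells, with TAL1 and LMO2 as partners. During erythroid commitment GATA1 takes the place of GATA2 at shared sites, while PU.1 and C/EBPα drive the myeloid fates and FLI1, MEIS1 and RUNX1 are kept in the megakaryocytic lineage. MYB is needed for the proliferation of definitive progenitors, and IKZF1 is a zinc-finger factor known best from lymphoid cells.

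A stage label rests on how often an antibody's barcode was read in a cell, so the 3 barcodes that place the cells on the axes used here are shown first, in capitals because every base identifies the antibody.
Ter119: GAGGCGATTGAT
CD71: CGAAGAAGGAGT
cKit: AAGCGCTTGGCA

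The 10 genes lie on 8 chromosomes of GRCm38 (mm10), the build to which the authors mapped their reads. Gata2 lies at chr6:88193891-88207032, Myb at chr10:21124930-21160984, Spi1 at chr2:91082374-91115759, Fli1 at chr9:32422204-32543432, Lyl1 at chr8:84701423-84704716 and Cebpa at chr7:35119293-35121928. Runx1 (chr16:92601466-92826074) and Erg (chr16:95359169-95586600) share a chromosome, as do Meis1 (chr11:18880428-19019651) and Ikzf1 (chr11:11684962-11772930). Promoter windows from RefSeq (GRCm38.p6), which run from 250 bases before to 50 bases after each annotated start, were found for 8 of the 10 genes (all but Spi1 and Fli1) and gave 13 windows. Motifs of the factors' own families were searched on both strands, because members of this group are known to regulate one another. The GATA motif AGATAA was in 1 of these 13 windows and in 11.2% of all 32851 windows in the table. The RUNX motif TGTGGT was in 2 of the 13 and in 16.8% of all. The ETS motif GGAAGT was in 1 of the 13 and in 23.8% of all. The E-box CAGCTG, which reads alike on both strands, was in 1 of the 13 and in 16.3% of all. None of these motifs contains another. The stretches with the matches are printed 5′ to 3′ on the strand of the gene, with the motif in capitals.
Runx1, chr16:92826025-92826054, minus strand: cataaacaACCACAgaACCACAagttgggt
Erg, chr16:95459434-95459463, minus strand: tttcagggtctcTTATCTctccactcccaa
Gata2, chr6:88198669-88198698, plus strand: tgcaggagtcggCAGCTGgcgccagggcgg
Meis1, chr11:19018965-19018994, minus strand: atggccaccactACTTCCgggttctagcat
The Runx1 stretch holds the RUNX motif 2 times in reverse orientation, 28 and 36 bases after the start. The Erg, Gata2 and Meis1 matches belong to starts inside the gene. The Erg match lies 103 bases before its start, that of Gata2 17 bases after and the ETS match of Meis1 13 bases before. The second RUNX window is that of Meis1, with the motif 166 bases before the start. A match states that the letters are present and says nothing of binding.

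Levels below are UMIs of a gene per 1000000 UMIs of all cells in the group (CPM), or per 1000000 UMIs of genes other than globin genes (non-globin CPM). With 1 library there is no replicate, so no test across samples could be made and no p-value is given. The 95% intervals are exact (Poisson for a level, conditional binomial for a ratio) and cover counting error only. A gene is counted as lower or higher when its level differs at least 2-fold between groups, and each count is read against all genes with at least 50 UMIs.

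The 10 factors differed most at the first step. From S0-low to S0-medium, 8 of the 10 factors were at least 2-fold lower, while 18.5% of the 11196 genes compared were. The median ratio was 0.119 for the 10 factors and 0.942 for all genes. From S0-medium to S1, 3 factors were at least 2-fold lower (Gata2, Myb and Meis1), against 5.37% of all genes, and 1 was higher (2.37%), Cebpa on 2 and 4 UMIs. From S1 to S2 there were 2, against 13.4%, namely Myb and Cebpa, the latter with 4 and 1 UMIs, and Gata2 was higher (3.35%) on 3 and 12 UMIs. From S2 to S3 there were 0 lower, against 21.7%, and Meis1 was higher (4.59%) on 6 UMIs in each stage. From S3 to S4/S5 there was 1 lower, Lyl1, against 44.4%, and 2 higher, Gata2 and Meis1, against 2.41%. Per non-globin UMI this last step had 0 lower (8.35% of all genes) and 5 higher (9.4%), namely Gata2, Myb, Spi1, Fli1 and Meis1, all of them at 63 UMIs or fewer in both stages. The free-RNA estimate introduced below was also higher in S4/S5 than in S3 for each of these 5, and its part was not tested. The share of factors that were lower thus exceeded the background clearly at the first 2 steps, and from S2 on it did not. The genes were brought together as lost factors with earlier results of these data known, so the excess is a description and no independent support. Without the stem and progenitor-like and non-erythroid clusters described below, the first count was 4, against 7.78% of all genes. Over the whole span from S0-low to S3, 9 of the 10 were at least 2-fold lower and Lyl1 was not, where the share of all genes was already 65.1%. The median ratio over that span was 0.0912 for the 10 factors and 0.368 for all genes. Per non-globin UMI the count was 8, against 42.5%, and Ikzf1 did not pass.

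**Figure D1:**
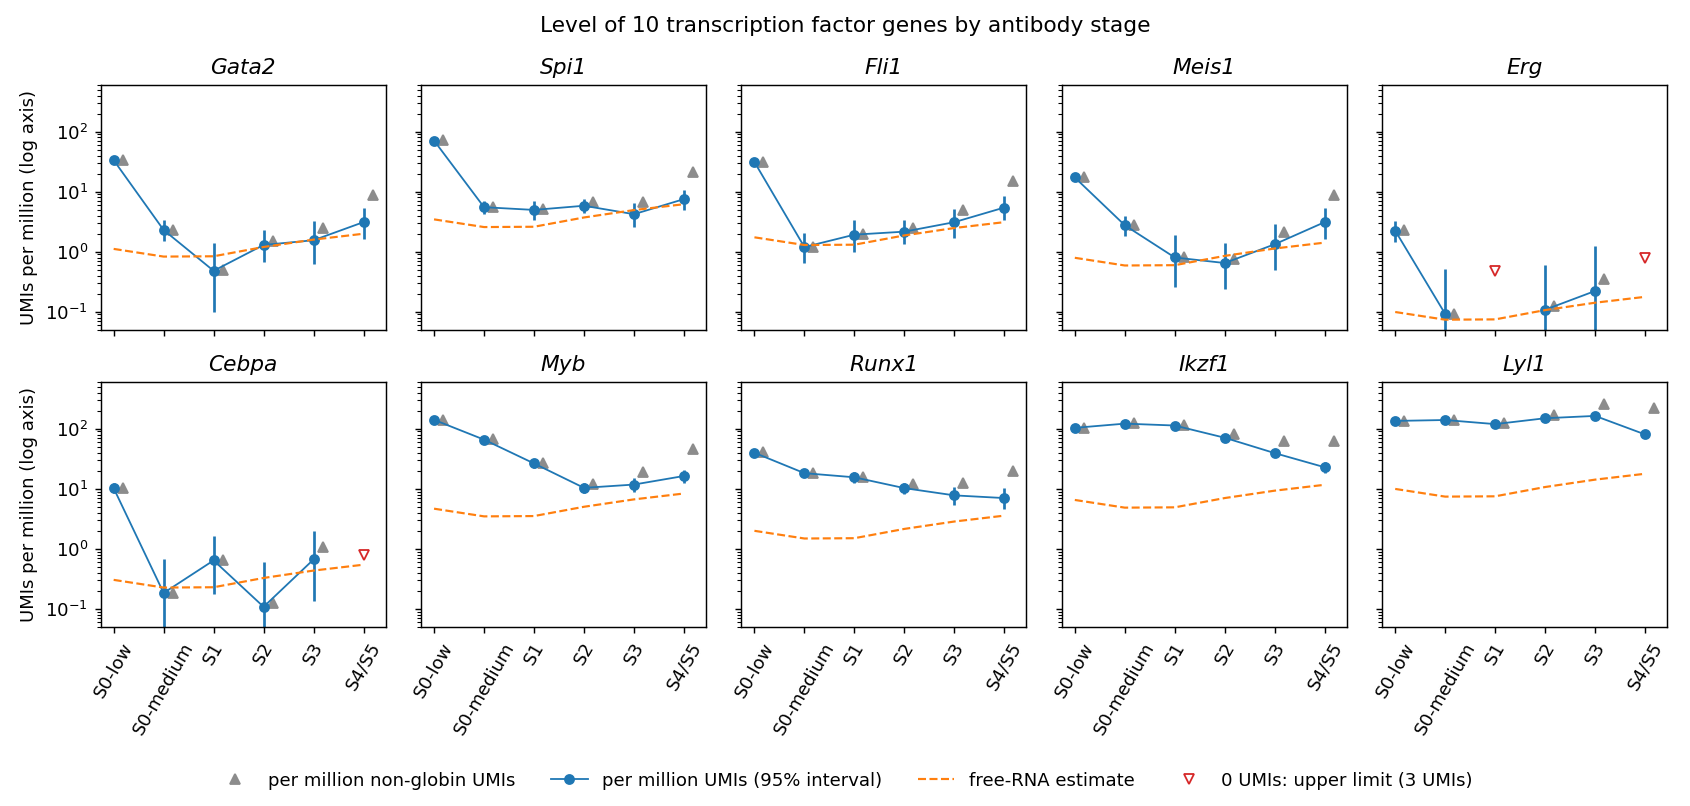
Level of each of the 10 genes in the 6 antibody stages of 1 library, as CPM (circles, bars show the 95% Poisson interval) and non-globin CPM (triangles) on a log axis, with the level that free RNA is estimated to give (dashed line) and open triangles for the limit where a gene had 0 UMIs. The intervals of Gata2, Fli1, Meis1, Erg and Cebpa include the dashed line in S1, Myb steps down 3 times, and Ikzf1 and Lyl1 stay above the line in all 6 stages.

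Gata2, the GATA factor of stem and progenitor cells, stood at 33.5 CPM (95% interval 30.3 to 37.0, 389 UMIs) in S0-low. In order, the 5 later stages held 2.30, 0.48, 1.29, 1.55 and 3.11 CPM. The first step was 14.6-fold (9.73 to 22.8) and the next, from 25 to 3 UMIs, was 4.78-fold (1.46 to 24.7). RNA set free from broken cells is counted in every droplet, and an estimate from the globin UMIs of non-erythroid cells puts it at 0.84 CPM for Gata2 in S1, 1.59 in S3 and 1.99 in S4/S5. The intervals of Gata2 included this estimate in every stage from S1 on (0.624 to 3.20 CPM in S3), so what is left there cannot be told apart from free RNA.

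Fli1, an ETS factor of megakaryocytes and endothelium, was at 31.2 CPM in S0-low (28.1 to 34.6) and then at 1.19, 1.92, 2.16, 3.10 and 5.45. Its first step was 26.1-fold (15.1 to 49.5). The estimate for free RNA was 1.29 CPM in S0-medium, within the interval of Fli1 there (0.636 to 2.04), whereas Gata2 in S0-medium (1.49 to 3.39) was above its own estimate of 0.829. Meis1, a homeobox factor of stem cells, was at 17.2 CPM in S0-low (14.9 to 19.8) and then at 2.76, 0.80, 0.65, 1.33 and 3.11. It was lower at both of the first steps, 6.25-fold (4.24 to 9.51) and 3.44-fold (1.32 to 11.4).

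Spi1 encodes PU.1, the factor of the myeloid lineages that opposes GATA1. It was at 71.0 CPM in S0-low (66.2 to 76.0, 824 UMIs) and at 5.51 in S0-medium, 12.9-fold lower (9.90 to 17.0). Without cells of the stem and progenitor-like and non-erythroid clusters this step was 1.88-fold (1.32 to 2.71) and did not pass. Later stages lay between 4.21 and 7.52 CPM, and the S3 interval (2.54 to 6.58) included the free-RNA estimate of 4.94, while those of S1 and S2 lay above theirs (2.60 and 3.72). Cebpa, a driver of granulocyte and hepatocyte genes, had 119 UMIs in S0-low (10.3 CPM) and 2, 4, 1, 3 and 0 UMIs in the 5 later stages. Erg, an ETS factor of stem cells, was the most sparsely counted of the 10, with 26 UMIs in S0-low, 0 in S1 and S4/S5, and 1 in each of the other stages. The ratios of Cebpa (55.8-fold, 15.1 to 466) and Erg (24.4-fold, 4.00 to 999) at the first step rest on 2 UMIs and 1 UMI.

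Myb, which keeps progenitors dividing, was lower by degrees. It stood at 141 CPM in S0-low (134 to 148), and the later stages held 65.9, 26.4, 10.4, 11.8 and 16.3 CPM. The first 3 steps were of like size, 2.14-fold (1.96 to 2.34), 2.49-fold (2.1 to 2.97) and 2.55-fold (1.97 to 3.32). S2 and S3 differed by less than counting error, with a ratio of 1.13 (0.796 to 1.60), but the ratio was 0.395 when the gates were set on antibody counts on a log10 scale. The S3 level exceeded its free-RNA estimate of 6.66 CPM by less than 2-fold. S3 was 11.98-fold below S0-low (9.12 to 16.1), or 7.55-fold per non-globin UMI.

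Runx1, the RUNX factor required for the first blood stem cells, was at 39.8 CPM in S0-low (36.3 to 43.6), followed by 18.2, 15.5, 10.3, 7.76 and 7.0 CPM. Only its first step was past 2-fold, at 2.19-fold (1.85 to 2.60). S0-medium and S1 differed by less than counting error (ratio 0.854, 0.663 to 1.09), and S2 was 1.52-fold below S1 (1.13 to 2.03). Unlike that of Gata2 or Fli1, the S1 interval of Runx1 (12.6 to 18.9) lay above the free-RNA estimate of 1.5 CPM, and it did so in all 6 stages. Cbfb, the subunit that RUNX proteins bind DNA with, held 53.3, 10.1 and 3.36 CPM in the first 3 stages and was 13.4-fold lower in S3 than in S0-low.

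Ikzf1 kept its level through the whole of S0 and S1. Its level was 103 CPM (97.7 to 109) in S0-low, and 122 and 113 CPM in the next 2 stages. The ratio of S1 to S0-low was 1.09 (0.996 to 1.2). It was then at 70.8 CPM in S2, 39.3 in S3 and 22.8 in S4/S5, in steps of 1.60-fold (1.44 to 1.78), 1.80-fold (1.53 to 2.14) and 1.72-fold (1.32 to 2.25). Globin RNA accumulates over the same stages. As non-globin CPM, Ikzf1 was at 105 in S0-low, 81.5 in S2, 63.0 in S3 and 63.4 in S4/S5. On this scale S3 was thus 1.66-fold below S0-low and the last ratio was 1.01. The free-RNA estimate for Ikzf1 was 9.30 CPM in S3 and 11.7 CPM in S4/S5. Over 12 alternatives its ratio from S3 to S4/S5 ranged from 0.384 to 1.01, so no plateau is read here.

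Lyl1, a bHLH factor and close relative of TAL1, was at 135 CPM in S0-low (128 to 142). The next stages held 140, 119, 150 and 164 CPM, and S4/S5 held 80.4. S3 was higher than S0-low, with a ratio of 1.21 (1.11 to 1.32) in CPM and of 1.92 in non-globin CPM. Counted as UMIs per cell the ratio was 0.849, so the direction depends on the scale, while none of these scales gave a 2-fold lower level. The 2.04-fold lower level in S4/S5 (1.78 to 2.33) was 1.17-fold lower in non-globin CPM. Per cell, Lyl1 had 0.345 UMIs in S4/S5, beside 0.881 in S3 and 1.04 in S0-low. Its level in S3 was far above the free-RNA estimate of 14.2 CPM. For comparison, Tal1 was at 86.3 CPM in S0-low and 207 CPM in S3, 2.40-fold higher.

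The stage borders were replaced by a finer axis by ordering the 2996 low-Ter119 cells outside the non-erythroid clusters by their CD71 counts and cutting them into 10 groups of 299 or 300 cells. From the first group (median CD71 count 15) to the tenth (1513), 8 of the 10 factors were at least 2-fold lower, against 26.2% of all genes. Gata2 was at 93.3, 81.7, 13.1 and 8.88 CPM in groups 1 to 4, and at 2.15 in group 5. Spi1 was at 211, 118, 12.7 and 6.18 CPM in groups 1 to 4, and Fli1 at 99.8, 57.9, 8.45 and 6.18. The largest step of Gata2, Spi1 and Fli1 between neighbouring groups of the first 4 thus lay between groups 2 and 3, at median CD71 counts of 35 and 92, well inside the S0-low gate, which ends at a count of 233. Runx1 was at 104, 65.4 and 20.7 CPM in groups 1 to 3, and then stayed between 13.2 and 22.8 CPM. Myb was at 216 and 206 CPM in groups 1 and 2, at 141 in group 3, 95.2 in group 5, 58.8 in group 7, 30.9 in group 9 and 19.9 in group 10. Ikzf1 (101 to 130 CPM) and Lyl1 (110 to 165 CPM) had their lowest and highest groups within 1.5-fold of each other. The make-up of the groups moved with this axis: cells of the stem and progenitor-like cluster were 76.0% of group 1, 34.7% of group 2 and 2.0% of group 3. Levels of the CD71 groups were not taken without these cells, so their part in the steps between groups was not tested. Only levels of the S0-low gate without them follow with the clusters.

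**Figure D2:**
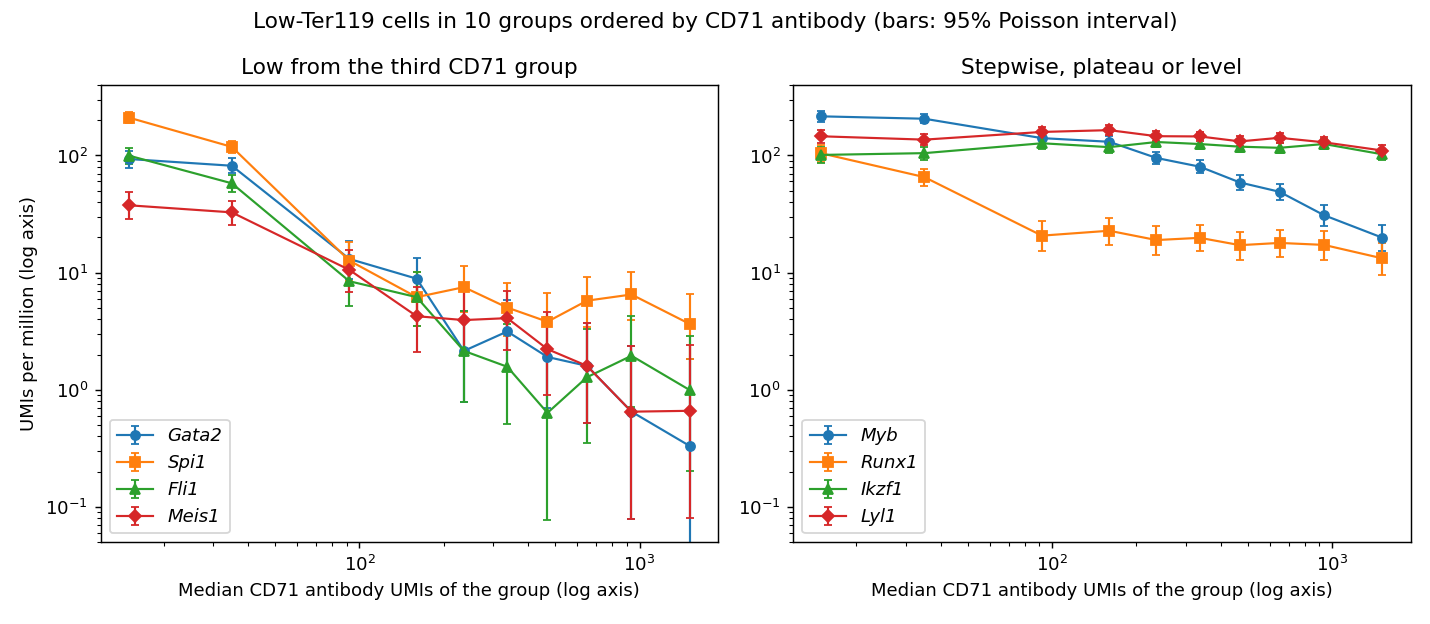
Level of 8 of the genes in 10 groups of low-Ter119 cells ordered by CD71 antibody (x axis, median antibody UMIs of each group, log axis; y axis, CPM, log axis; bars, 95% Poisson interval). Gata2, Spi1, Fli1 and Meis1 (left) are far lower in group 4 than in group 2. On the right Myb declines across the whole axis, Runx1 lies between 13.2 and 22.8 CPM from group 3 on, and Ikzf1 and Lyl1 stay within 1.5-fold.

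S0-low held more than 1 kind of cell. Cells were clustered on the RNA of all variable genes except the 10 factors and the other transcription factors listed below, so the factors' levels had no part in the clusters. A stem and progenitor-like cluster of 530 cells was led by Ifitm1, Hmga2, Cd34 and Sox4. Its median antibody counts were 393 for cKit, 23 for CD71 and 29 for CD11b, which was 6 in all kept cells. Its top genes held 3 of the stem and progenitor markers and 2 markers of neutrophils and monocytes. These 2 lists summed to 2261 and 2126 CPM there, and the stem and progenitor list to 3149 CPM in the neutrophil/monocyte-like class. A list of mast cell and basophil markers summed to 1066 and 981 CPM in these 2 classes, and its member Cpa3 was among the cluster's leading genes. The name thus does not set the cluster apart from myeloid progenitors. It made up 339 of the 1510 S0-low cells (22.5%), and cells of non-erythroid clusters made up 172 (11.4%), of which 118 were hepatocyte-like. The 10 hepatocyte markers, all detected in both stages, summed to 9226 CPM in S0-low and 1121 CPM in S3, and the 12 neutrophil and monocyte markers, again all detected, to 598 and 153 CPM. The other 999 S0-low cells had a median CD71 count of 112 and a median cKit count of 272.

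Within S0-low, 7 of the 10 factors were at least 2-fold higher in the stem and progenitor-like cells than in those 999 cells, against 16.5% of all genes. Spi1 was at 276 CPM (254 to 300) in the former and 9.76 (7.71 to 12.2) in the latter, 28.3-fold apart (22.3 to 36.3). Cebpa had 61 and 1 UMIs and Erg 23 and 2. Fli1 was 7.09-fold higher (5.62 to 8.98), Runx1 4.92-fold (4.06 to 5.97), Gata2 4.59-fold (3.74 to 5.64) and Meis1 2.82-fold (2.06 to 3.85). Myb was 1.40-fold higher (1.25 to 1.57), Lyl1 was indistinguishable (0.944, 0.830 to 1.07) and Ikzf1 was lower in the stem and progenitor-like cells (0.808, 0.690 to 0.941).

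**Figure D3:**
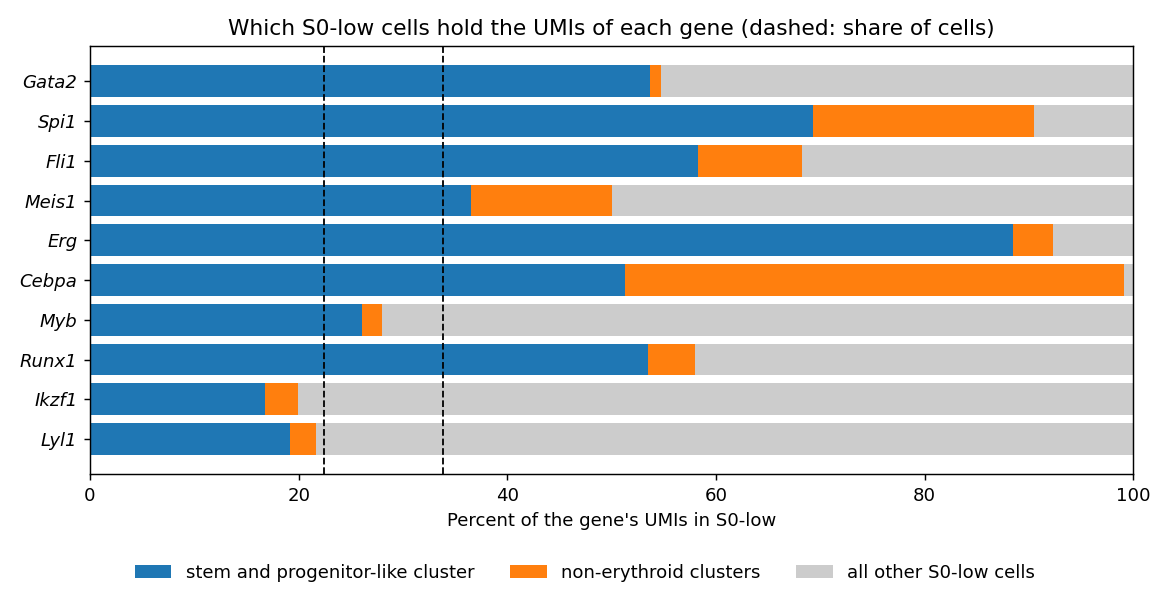
For each gene, the percent of its S0-low UMIs that lay in cells of the stem and progenitor-like cluster, of non-erythroid clusters and in all other S0-low cells (x axis, percent); dashed lines mark the share of cells that the first class and both classes together make up. Spi1, Erg and Cebpa UMIs lie almost wholly in the first 2 classes, whereas the bars of Ikzf1 and Lyl1 fall short of the share of cells.

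The stem and progenitor-like cells held 69.3% of the S0-low UMIs of Spi1, 88.5% of those of Erg, 58.3% of Fli1, 53.7% of Gata2, 53.5% of Runx1 and 51.3% of Cebpa. A further 47.9% of the Cebpa UMIs and 21.2% of the Spi1 UMIs came from cells of non-erythroid clusters. When both kinds of cells were left out of all gates, an alternative added after seeing the data, 4 factors and not 8 were at least 2-fold lower from S0-low to S0-medium, against 7.78% of all genes, with a median ratio of 0.490 for the 10 and of 0.957 for all. These were Gata2 (10.8-fold, 6.93 to 17.7), Myb (2.23-fold, 2.03 to 2.45), Fli1 (14.1-fold, 7.61 to 29.1) and Meis1 (4.51-fold, 2.97 to 7.03). Runx1 was then 1.33-fold lower (1.09 to 1.63) and Spi1 1.88-fold (1.32 to 2.71), while Erg and Cebpa had too few UMIs for a ratio. Gata2, Fli1, Meis1 and Myb were thus at least 2-fold lower also among cells outside those clusters, Spi1 and Runx1 were not, and Erg and Cebpa could not be called. From these 999 cells to S3, 7 factors were at least 2-fold lower (60.9% of all genes), or 5 per non-globin UMI (36.7%), where Spi1 and Ikzf1 did not pass. Lyl1 was again level in CPM (1.07, 0.976 to 1.17).

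The receptor cKit divides S0-low into 901 cells with high and 609 with low antibody counts. Gata2 was 4.41-fold higher in the cKit-high cells (3.14 to 6.37), Runx1 2.69-fold (2.07 to 3.53) and Myb 2.1-fold (1.85 to 2.39). Lyl1 was 1.85-fold higher (1.63 to 2.1), Spi1 1.29-fold (1.10 to 1.51) and Ikzf1 1.30-fold (1.15 to 1.49). Cebpa was the exception, with a ratio of 0.441 (0.302 to 0.642). The cKit-low cells held 25.8% cells of non-erythroid clusters and the cKit-high cells 1.66%. Stem and progenitor-like cells made up 11.7% of the cKit-low and 29.7% of the cKit-high cells, and the part of either in the differences was not tested. In the 618 cKit-high cells outside the stem and progenitor-like and non-erythroid clusters, Gata2 was at 25.4 CPM and Spi1 at 10.6 CPM.

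The cells of non-erythroid clusters were compared with S0-low in the same way. Cells that belong to both groups of a comparison were not taken out of either. The 97 megakaryocyte-like cells, with a median CD41 antibody count of 1401, had 4 factors at least 2-fold higher than S0-low (15.6% of all genes) and 4 at least 2-fold lower (15.2%). Fli1 was at 413.5 CPM, 13.3-fold higher (11.4 to 15.4), Meis1 at 170 CPM, 9.89-fold (7.95 to 12.3), Runx1 at 178 CPM, 4.48-fold (3.71 to 5.37), and Gata2 at 78.4 CPM, 2.34-fold (1.79 to 3.03). Myb (10.1 CPM), Spi1 (15.7 CPM) and Ikzf1 (5.60 CPM) were among the lower. Erg and Cebpa had 0 UMIs there, which allows up to 3.36 CPM, so that Cebpa was at least 3.05-fold lower and Erg gives no direction. Lyl1 was at 178 CPM, 1.32 times its S0-low level.

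The 277 neutrophil/monocyte-like and 81 macrophage-like cells had 2 factors each at least 2-fold higher, Spi1 and Fli1, against 11.2% and 20.5% of all genes. Spi1 was at 490 CPM (460 to 522) in the former and 467 CPM (412 to 527) in the latter, with intervals that overlap. Fli1 was at 91.2 and 70.3 CPM. At least 2-fold lower were 1 factor in the former (Gata2, against 16.3% of all genes) and 3 in the latter (Gata2, Myb and Lyl1, against 19.9%). The classes differed in Myb, at 109 CPM in neutrophil/monocyte-like and 7.21 CPM in macrophage-like cells, and in Lyl1, at 112 and 28.8 CPM. At a finer clustering the former class split into 113 cells led by neutrophil granule genes, with Myb at 215 CPM, and 161 cells led by Ccr2 and Lyz2, with Myb at 35.7 CPM and Spi1 at 547 CPM.

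Only Cebpa was at least 2-fold higher in the 247 hepatocyte-like cells than in S0-low (16.5% of all genes), at 30.4 CPM and 2.97-fold (2.22 to 3.96), and 6 factors were lower (20.4%). Of these 247 cells, 118 were also S0-low cells, with 52 UMIs of Cebpa, and were counted on both sides. The ratio and its interval do not allow for this overlap. In S0-low without non-erythroid clusters Cebpa was at 6.16 CPM. Fli1 (30.4 CPM) and Erg (10 UMIs) in this class came largely from cells that a finer clustering sets apart. It separated 189 hepatocyte-like cells, with Fli1 at 8.42 CPM and Cebpa at 36.3 CPM, from 59 cells led by Mest, Sparc, Dcn and Lyve1, which carry mesenchymal and endothelial genes and had Fli1 at 134 CPM, Erg at 16.7 CPM and Cebpa at 2.09 CPM. Fli1 was 15.9-fold apart between them (9.41 to 28.1).

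**Figure D4:**
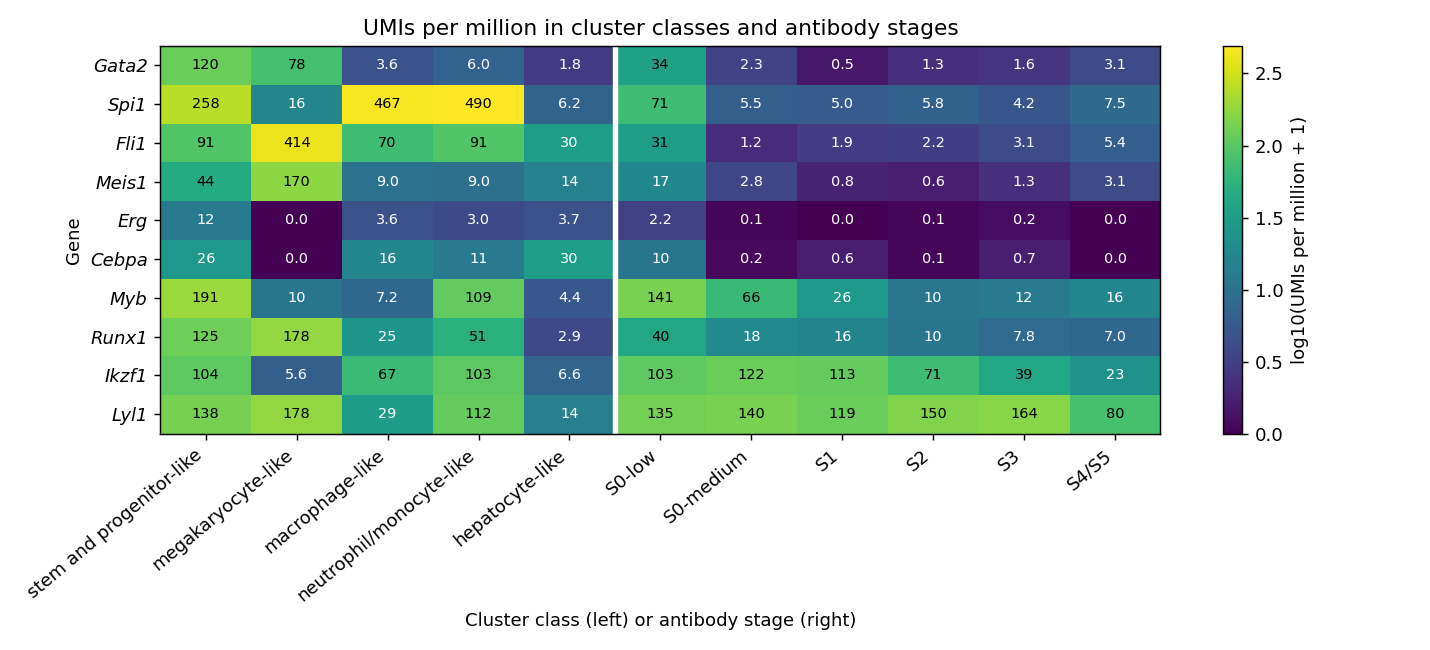
CPM of each gene (rows) in 5 cluster classes and 6 antibody stages (columns); numbers are the levels and colour is log10 of the level plus 1. Fli1 and Meis1 have their brightest cell in the megakaryocyte-like class and Spi1 in the neutrophil/monocyte-like and macrophage-like classes, whereas Ikzf1 and Lyl1 are bright along the stages.

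The order of classes differed by gene. For Gata2 and Erg the highest of the 5 cluster classes and 6 stages was the stem and progenitor-like class (120 and 11.9 CPM), in which 7 of the 10 were at least 2-fold above S0-low, against 9.54% of all genes. Of the 530 cells of this class, 339 were also S0-low cells and were counted on both sides, so the 2 groups are not separate. Myb was highest there too, at 191 CPM, followed by S0-low at 141 CPM. For Runx1 the megakaryocyte-like level of 178 CPM (152 to 208) was followed by the stem and progenitor-like level of 125 CPM. Ikzf1 had its highest level in S0-medium, but S0-medium (115 to 128), S1 (105 to 122), S0-low, the stem and progenitor-like class (104 CPM) and the neutrophil/monocyte-like class (103 CPM) lay close together, and the intervals of the last 3 overlapped.

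Shares of cells with a UMI were taken after thinning each cell to 2000 UMIs, so that all cells were read at the same depth. Free RNA is estimated at the same number of UMIs in every cell, so it makes up more of a shallow cell, also after thinning. The background read below in deeper hepatocyte-like cells may thus be too low for S3 and S4/S5. Myb was seen in 23.8% of S0-low cells (21.6 to 26.0, exact binomial). The 5 later stages had it in 10.8%, 3.59%, 1.31%, 1.43% and 2.78% of cells. In the 189 hepatocyte-like cells of the finer clustering, which should lack Myb and had a median of 13001 UMIs, the share was 1.59% (0.329 to 4.57). The S1, S2, S3 and S4/S5 shares (median depths of 10151.5, 6021, 4534.5 and 3949 UMIs) lie within its interval. No expression is thus read from these thinned shares, although the CPM of Myb was above the free-RNA estimate in each of these stages. In S1 it was 26.4 CPM, beside an estimate of 3.51. Without thinning the shares were 53.5% in S0-low, 17.8% in S1, 4.77% in S3 and 6.35% in those hepatocyte-like cells. Spi1 was in 12.4% of S0-low and 0.716% of S3 cells, against 1.06% of hepatocyte-like cells, and is likewise at background in S3. Ikzf1 was in 19.7%, 21.8%, 20.9%, 10.9%, 7.16% and 3.34% of cells along the 6 stages, against 0.529% of hepatocyte-like cells. Lyl1 was in 21.2% of S0-low, 22.2% of S1, 27.1% of S2, 26.8% of S3 and 13.4% of S4/S5 cells, against 1.59%. Globin is part of these 2000 UMIs. Thinned to 1000 non-globin UMIs, Ikzf1 was in 10.1%, 9.51%, 11.6%, 7.64%, 6.86% and 5.61% of cells along the stages. Lyl1 was then in 12.7% of S0-low, 13.1% of S1, 16.7% of S2, 23.9% of S3 and 19.5% of S4/S5 cells. In S4/S5 only 660 of 898 cells had enough non-globin UMIs for this. With 2000 UMIs, 9 of the 10 shares were lower in S3 than in S0-low, and Lyl1 was the exception. Shares of cells were not taken for all genes, so this count has no background of its own. In CPM, 65.1% of all genes were at least 2-fold lower over this span, so no excess is read from it.

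After thinning, a stem and progenitor-like cell of S0-low had UMIs of 1.78 of the 10 genes on average, and 21 of 339 such cells (6.19%) had UMIs of 4 or more. Of the other 999 S0-low cells, 3 (0.300%) had 4 or more and the mean was 0.848. The mean was 0.594 in S0-medium, 0.513 in S1 and 0.383 in S3, where Lyl1 and Ikzf1 supplied most of it. Gata2 and Spi1 UMIs met in 15 of the 339 stem and progenitor-like cells, beside 17.8 that the separate shares (46 cells with Gata2 and 131 with Spi1) would give.

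Other factors were read from whole lists, each given by its count. Among 18 further stem and progenitor factors, 14 had enough UMIs, and 13 of these were at least 2-fold lower in S3 than in S0-low, against 65.1% of all genes (median ratio 0.0931, against 0.368 for all genes). Ikzf2 (Helios), a relative of Ikzf1, was 66.4-fold lower (18.2 to 551, 2 UMIs in S3), Mycn 38.1-fold (10.4 to 317, 2 UMIs) and Runx3 22.2-fold (8.57 to 82.3, 4 UMIs). From S0-low to S0-medium 12 of the 14 were lower (18.5% of all genes), and from S0-low to S1 13 were (23.6%). Ikzf2 was at 29.5 CPM in S0-low and 1.01 in S0-medium, a step at which Ikzf1 was 1.18 times its earlier level. Of 7 myeloid factors with enough UMIs, 6 were at least 2-fold lower in S3 (65.1% of all genes) and all 7 in S0-medium (18.5%). Irf8, a monocyte factor, was at 25.3 CPM in S0-low and 1.84 in S0-medium. All list counts, here and below, use the whole S0-low gate. In the stem and progenitor-like class 10 of the 14 progenitor and 4 of the 7 myeloid factors were at least 2-fold higher than in S0-low (9.54% of all genes). Ikzf2 was at 130 CPM there and Irf8 at 85.5. The lists were not counted without the stem and progenitor-like and non-erythroid cells, so the part of these cells was not tested.

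Of the 8 erythroid factors, 3 were at least 2-fold higher in S3 than in S0-low (5.83% of all genes) and 1 was lower (65.1%). Nfe2 was 3.16-fold higher, Klf1, the activator of adult globin genes, 2.52-fold and Tal1 2.40-fold, while Ldb1, which joins GATA1 and TAL1 complexes, was 2.70-fold lower. Per non-globin UMI the ratios of Nfe2, Klf1 and Tal1 were 5.02, 3.99 and 3.81. More of the 8 then passed as higher (10.2% of all genes), among them Gata1 at 2.35. Ldb1, at a ratio of 0.589, was then not 2-fold lower (42.5% of all genes were). Gata1, the GATA factor of erythroid cells, stood at 132 CPM in S0-low and 203 CPM in S1. In the stem and progenitor-like class Gata1 was at 36.1 CPM and Klf1 at 37.2 CPM. Among 6 cofactors 5 were at least 2-fold lower in S3, led by Cbfb. All 11 surface and receptor genes of progenitors were lower, including Csf1r (33.8-fold, 5.91 to 1350, 1 UMI in S3), Cd34 (19.2-fold), Plac8 (12.1-fold) and Kit, the gene of the cKit receptor, which was at 0.0835 of its S0-low level. Against the 65.1% of all genes that were lower over this span, the counts of the cofactors and the myeloid factors are not far from the background.

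The genes whose levels ran most like each factor were found by Pearson's r of log2(CPM + 5) over the 6 stages and 4 non-erythroid classes, which share 1 library. These correlations over 10 points are a description. Myb was closest to Kit (0.953), Spi1 to Ptprc (0.997), the gene of the leukocyte protein CD45, and Runx1 to Btk (0.972), a kinase of blood cells. Meis1 was closest to Tnnt1 (0.980), and Fli1 to Klhl6 (0.995). Gata2 was closest to Rab37 (0.977) and, after Il12a, to Angpt1 (0.946), Ikzf1 to Lgals1 (0.981), Lyl1 to Tssc1 (0.983) and Cebpa to Ccnd1 (0.980), the gene of cyclin D1.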

How the data were processed

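The cDNA library was made on the 10x platform, and the authors mapped its reads to mm10 with Cell Ranger and deposited raw UMI counts for every gene in every cell, with no normalization. The antibody library was assigned with CITE-seq-Count and deposited by the authors as raw counts per antibody and cell; 1.05% of these counts matched no antibody. The counts are from the 3′ ends of transcripts, so levels are compared between groups and not between genes.

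Quality limits were 300 to 5000 genes and 9% mitochondrial UMIs (508 cells fell outside), and Scrublet, set to expect 6% doublets, marked 128 (1.63%), which were removed. Antibodies were put on a centered log ratio over the cells. The limit on lineage antibodies was a summed count of 95.8 (median plus 2 scaled median absolute deviations), and Ter119, CD71 and cKit classes came from k-means. The gates stand in for gates whose positions are not given in the sources used here. Of 6424 cells under the limit, 215 had no stage.

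Leiden clusters (16 at resolution 0.8, 7 of them unnamed) came from 2000 variable genes, 16 principal components and 30 neighbours. A cluster was named when at least 3 markers of a class were among its top 20 genes by fold and no other class had as many, a rule set after the clusters were seen. The free-RNA estimate of 583 UMIs per cell divides the median of 68 globin UMIs in non-erythroid cells by the globin share of all kept cells, and takes free RNA to have the composition of the pool.

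Levels are summed UMIs over total UMIs. A group with 0 UMIs was set to 3 UMIs in ratios, and no ratio is given where both groups had 3 UMIs or fewer. On simulated Poisson counts of S0-low and S3 over 27998 genes, all 200 changed genes were called, and intervals covered the true ratio in 193. The changed genes had at least 200 UMIs and true ratios of 0.1, 0.25, 4 or 10, and counting error was the only spread. This check thus covers neither genes with few UMIs, nor changes near 2-fold, nor differences between cells. The 10 genes and all lists were chosen with earlier results of these data known. Named genes are the 10 factors, the 3 most similar genes of each factor with at least 200 UMIs, and 2 to 4 list members with the largest change; Cbfb, Ikzf2, Gata1, Tal1 and the genes that lead clusters are named besides, and 1 gene is not reported here. The alternatives varied how antibodies were scaled and split, which cells entered (lineage limit, quality, doublets, clusters), the denominator, subtraction of free RNA, thinning, clustering resolution, the minimum of UMIs and the fold. Software was Python 3.11.15, scanpy 1.11.5 (with igraph 0.11.9 and anndata 0.12.19), scikit-learn 1.9.0, scipy 1.17.1 and numpy 2.4.6, with matplotlib 3.10.9 and pandas 2.3.3 (seed 7).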

Additional observations from a re-analysis of the deposited data

How the results depend on the processing

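Most of the values held: 83 values that answer a comparison were within 1.5 times of the one reported or within its error, and 32 were not. Of the other values 541 moved by less than their error, 130 moved by more, and 8 that were past 2-fold changed direction, all resting on few UMIs. Ratios within 2-fold could change side too, among them that of Lyl1 from S0-low to S3 (range below), of Myb from S2 to S3 (0.395 to 1.58) and of Fli1 from S0-medium to S1 (0.224 to 2.23). The ratio of Cebpa from S0-medium to S1 was 0.0778 with antibodies on a log10 scale, 0.161 with the centered log ratio within each cell and 0.0620 with Gaussian mixture classes. The ratio of Gata2 from S1 to S2 was 0.457 and 0.787 under the first 2 of these and 0.692 with free RNA subtracted. On the log10 scale that of Cebpa from S1 to S2 was 1.22 and that of Meis1 from S2 to S3 was 0.746.

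The number of factors at least 2-fold lower from S0-medium to S1 was 5 on the log10 scale and with Gaussian mixture classes. From S1 to S2 it was 1 with Gaussian mixture classes, with no lineage limit, without non-erythroid clusters, with the stem and progenitor-like cluster also left out and with free RNA subtracted, and 4 as UMIs per cell and at a fold of 1.5. From S2 to S3 it was 2 on the log10 scale and with free RNA subtracted, and 1 with the log ratio within each cell, as UMIs per cell and at a fold of 1.5. From S3 to S4/S5 it was 0 with the log ratio within each cell and per non-globin UMI, and 2 as UMIs per cell, with free RNA subtracted and at a fold of 1.5. From S0-low to S0-medium it was 4 without the stem and progenitor-like and non-erythroid clusters, chosen after seeing the data, as was keeping non-erythroid cells in the CD71 groups, which left the count within 1.5 times. At Leiden resolution 0.4 the factors higher than S0-low were 2 in 436 megakaryocyte-like cells and 6 in 802 neutrophil/monocyte-like cells. The share of all genes under the same alternative is not given beside these counts, except where stated above. No excess over all genes is therefore read from them. Why these counts moved was not tested.

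Among all genes, those higher from S0-low to S0-medium numbered 369 with no minimum of UMIs and 630 at a fold of 1.5. At that fold lower and higher genes numbered 1394 and 629 from S0-medium to S1 and 3462 and 689 from S1 to S2. They numbered 5437 and 852 from S2 to S3, and 6693 and 456 from S3 to S4/S5. In the main calls at 2-fold, these 4 steps compared 10658, 10471, 10316 and 9660 genes, and the step from S0-low to S0-medium 11196. Over 12 alternatives the ratio of S3 to S0-low ranged from 0.849 to 1.92 for Lyl1, 0.266 to 0.602 for Ikzf1 and 0.0388 to 0.132 for Myb.

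No paired analysis was possible because there is 1 library. The depth limits Erg (71 UMIs in all kept cells) and Cebpa (218), for which ratios after S0-low rest on 4 UMIs or fewer in each stage. Differences between embryos, or between preparations, cannot be seen in pooled cells.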

Other observations

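An unnamed cluster of 508 cells, led by Gm15915, Ptprcap, Spns2, Icam2 and Car1, had the highest median cKit antibody count of the 16 clusters, 531, with a median CD71 count of 86. It held Gata2 at 38.2 CPM, Myb at 177, Runx1 at 33.6, Fli1 at 29.1 and Meis1 at 23.6, with Spi1 at 14.6 CPM. Compared with the stem and progenitor-like cluster, where Gata2 was at 120 and Spi1 at 258 CPM, both were lower, and Myb (191 CPM there) was close. A further unnamed cluster of 711 cells, with a median CD71 count of 186, had Gata2 at 3.95 CPM and Myb at 111 CPM. In a cluster of 648 cells with a median CD71 count of 511.5, Gata2 was at 1.86 CPM and Myb at 63.8 CPM. Ikzf1 was at 113, 143 and 120 CPM in these 3 clusters, in that order.

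A cluster of 75 late erythroid cells was led by the embryonic globin genes Hbb-y and Hba-x, which mark the primitive lineage. Globin took 81.7% of its 381055 UMIs, which lowers the CPM of every other gene. Lyl1 was at 78.7 CPM and Ikzf1 at 10.5 CPM there, and neither is read as lower than in the stages.

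Among cells above the lineage limit, which enter no stage, the 249 cells with CD41 as the leading lineage antibody had Fli1 at 215 CPM, Runx1 at 119, Gata2 at 110 and Meis1 at 93.1 CPM. The 450 such cells led by CD11b had Spi1 at 361 CPM.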
